A study of Rattus norvegicus with 9 samples.

Results

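The genes described here encode protein subunits of the mitochondrial respiratory chain, complexes I to V, and they were followed in rat cortical neurons under alternating or direct current. They were chosen from the deposited gene table by annotation and name. All protein-coding entries of the mitochondrial chromosome were taken, together with every nuclear entry whose symbol begins as those of the chain's subunits do (Nduf, Sdh, Uqcr, Cox4 to Cox8 and Atp5). An entry also needed a mean estimated count of at least 10 over the libraries. This left 95 of 32623 entries, 13 of them mitochondrial and 82 nuclear, out of 102 that matched the names. Primary cortical neurons of wild-type Wistar rat embryos, taken at embryonic days 16 to 18, received alternating current (ACS) or direct current (DCS, called DES in the labels) or no current (Control), with 3 libraries per group and 9 in all. Both currents were 3 µA for 20 min per day over 7 days, and the labels give 20 Hz for either of them. The labels place the cells at day 7 in vitro, whereas the growth protocol runs to day 14. The cultures were grown on conductive glass and sequenced as poly(A)-selected bulk RNA, and nothing in the sources used here states that libraries were made from different cultures. The p-values then measure the spread of these samples alone, which may be technical.

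The respiratory chain passes electrons from NADH (complex I) and succinate (complex II) through complex III and cytochrome c to complex IV, which reduces oxygen, and the proton gradient this builds drives ATP synthesis by complex V. Complex II is encoded wholly in the nucleus, whereas the other complexes mix core subunits made inside the mitochondrion with nuclear subunits that are imported. The mitochondrial genes are transcribed from both strands of a small circular chromosome as long precursors that are then cut apart at tRNAs, so they share precursors but not necessarily stability. Neurons depend on this chain for most of the ATP that ion pumps and synapses use.

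The estimated counts summed to between 49039412 and 52938628 in ACS libraries, 52370330 and 68133858 in DCS libraries and 53910745 and 68690760 in Control libraries. Of the members, 94 of 95 passed the filter on low counts, and the other is an entry named Ndufa10l1 on chromosome 6. All 12 neuronal markers were present, led by Tubb3 and Stmn2, and the 12 together summed to 5910 to 6120 CPM (counts scaled to library size) in ACS libraries, 5900 to 5992 CPM in DCS libraries and 5725 to 6214 CPM in Control libraries. Markers of other cells were also present. The 6 astrocyte markers summed to 611 to 952 CPM in ACS, 787 to 808 CPM in DCS and 797 to 870 CPM in Control libraries, and the 6 markers of the oligodendrocyte lineage to 516 to 561 CPM in ACS, 516 to 589 CPM in DCS and 516 to 590 CPM in Control libraries. The 6 markers of progenitors and dividing cells summed to 534 to 610 CPM in ACS, 591 to 622 CPM in DCS and 635 to 666 CPM in Control libraries, so that the highest stimulated library lay below the lowest Control library. The 6 microglial markers summed to between 153 and 174 CPM in all libraries, and 4 of the 6 vessel and meningeal markers were listed, with Cldn5 and Dcn at 0 in some libraries. By the edgeR test described below, 2 of the 6 progenitor markers were called lower under ACS than in Control, and 2 had a fold change above 0. In that comparison 1 of 12 neuronal and 1 of 6 astrocyte markers were called higher. Of all tested genes, 2.83% were called higher and 1.33% lower there. The part of these differences in the results below was not tested.

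Levels between genes are given as FPKM, the authors' value per kilobase of transcript. The mitochondrial genes were by far the higher group, with a median over genes of 5504 FPKM against 74.2 FPKM for the nuclear members, and no nuclear member reached the lowest mitochondrial gene. The highest was Mt-co1, the catalytic core of complex IV (chromosome MT, 5323 to 6867, plus strand), at 9490 to 11272 FPKM over the 9 libraries. Mt-atp6, the proton channel subunit of complex V (7919 to 8599), followed at 8103 to 10516 FPKM in 7 libraries and was far lower in the other 2, which are described separately below. Mt-co3 (8599 to 9382) had a median of 6920 FPKM, Mt-atp8 (7758 to 7961) of 6567 FPKM and Mt-co2 (7006 to 7689) of 6375 FPKM, and these 3 overlapped in their ranges. Mt-co2 exceeded Mt-nd2 in all 9 libraries. Of the complex I genes, Mt-nd2 (3904 to 4942) had a median of 5489 FPKM and Mt-nd1 (2740 to 3694) of 5249 FPKM, and their ranges overlapped. Mt-cyb, the cytochrome b of complex III (14136 to 15278), had a median of 4767 FPKM. After it came a gap. Mt-nd4l (9870 to 10166) had a median of 2636 FPKM with its highest library at 3114 FPKM, below the lowest value of Mt-cyb at 4490 FPKM. Mt-nd4 (10160 to 11537) had a median of 2020 FPKM, Mt-nd5 (11736 to 13565) of 1697 FPKM, Mt-nd3 (9451 to 9798) of 1404 FPKM and Mt-nd6 of 1372 FPKM. Mt-nd6 (13543 to 14061) is the only protein gene on the minus strand, and its human counterpart is known for carrying little or no poly(A) tail. The table names no genome build, and these positions are printed as it gives them.

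In 4 pairs these genes share bases, which a counter has to divide. Mt-atp8 and Mt-atp6 overlap by 43 bases and are read from the same RNA, Mt-nd4l and Mt-nd4 overlap by 7 bases, and Mt-atp6 and Mt-co3 by 1 base. Mt-nd5 and Mt-nd6 lie on opposite strands and overlap by 23 bases. The library kit marks strand, but the sources used here do not say whether the counting used it.

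The nuclear members were led by Atp5f1b, the catalytic beta subunit of complex V, with a mean of 500 FPKM over the libraries. Cox4i1, the main form of a regulatory subunit of complex IV, had the highest mean in that complex at 338 FPKM. Uqcrh, the acidic hinge protein of complex III that contacts cytochrome c1, led complex III at 166 FPKM, Ndufb8, an accessory subunit of the membrane arm, led complex I at 117 FPKM, and Sdhc, a membrane anchor, led complex II at 83.3 FPKM. By complex, the median nuclear member stood at 52.6 FPKM for complex I (36 entries), 72.9 FPKM for complex II (4 entries), 73.8 FPKM for complex III (9 entries), 154 FPKM for complex IV (16 entries) and 129 FPKM for complex V (17 entries). In all, 25 nuclear members had a mean over 100 FPKM and 5 had a mean under 10 FPKM.

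Several subunits of complex IV come in alternative forms, and in the pairs listed here 1 form stood far above the other per kilobase. Cox4i1 had 306 to 390.1 FPKM over the 9 libraries, whereas Cox4i2, its hypoxia-responsive form, averaged 0.101 FPKM with a mean count of 6.67, under the minimum. Cox6a1 had 214 to 294 FPKM, and the heart and muscle form Cox6a2 averaged 0.337 FPKM with a mean count of 9.56, just outside the minimum. The processed pseudogene entry named Ndufs6 was also outside at a mean count of 7, as were Cox7b2 at 0.333 and Cox8b, Cox8c and Cox6c-ps1 with 0 counts in every library. Cox8a, the ubiquitous form, had 80.2 to 108 FPKM, and Cox7b 160 to 191 FPKM. Cox6b1 on chromosome 1 had 163 to 194 FPKM, and Cox6b2, a form best known from testis, 6.49 to 10.3 FPKM. Cox7a1, the heart and muscle form, was just inside the minimum with a mean count of 29.8 and at most 0.44 FPKM, as was the entry named Ndufv3 on chromosome 13 with a mean count of 36.7, and the table lists no entry under the symbol Cox7a2. Ndufa4, now placed in complex IV, had 190 to 207 FPKM, and its relative Ndufa4l2, which is induced by hypoxia, had a mean count of 36.8 and at most 0.96 FPKM.

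The 13 mitochondrial genes took 5.96%, 5.54% and 5.93% of all counts in ACS libraries 1 to 3, 5.77%, 5.25% and 5.34% in DCS libraries and 6.80%, 6.65% and 5.56% in Control libraries. The first 2 Control libraries were the highest of the 9, and Control 3 lay among the stimulated libraries, so neither current gave a group apart from Control. As means, the share was 5.81% ± 0.233 under ACS, 5.45% ± 0.279 under DCS and 6.33% ± 0.677 in Control (SD, n = 3 each). The 82 nuclear members took 0.709% ± 0.0152 under ACS, 0.758% ± 0.0210 under DCS and 0.726% ± 0.0130 in Control. The ratio of mitochondrial to nuclear counts was 8.31, 7.70 and 8.57 in ACS libraries, 7.63, 6.73 and 7.24 in DCS libraries and 9.44, 9.27 and 7.50 in Control libraries. The ACS and DCS ratios did not overlap, ACS being higher, whereas each overlapped with Control through Control 3. The separation of ACS and DCS rested on Mt-atp6, which was low in DCS 2 and DCS 3. Without that gene the ratio was 7.46, 6.89 and 7.70 in ACS libraries, 6.84, 6.54 and 7.08 in DCS libraries and 8.42, 8.24 and 6.73 in Control libraries, so that ACS 2 lay below DCS 3. Mitochondrial ribosomal RNA took 0.0911% to 0.0993% of counts under ACS, 0.0682% to 0.0797% under DCS and 0.0768% to 0.0915% in Control, and mitochondrial tRNA 0.0112% to 0.0142% over all libraries. In bulk RNA, fewer mitochondria-rich cells and less of these RNAs per cell cannot be told apart.

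**Figure D1:**
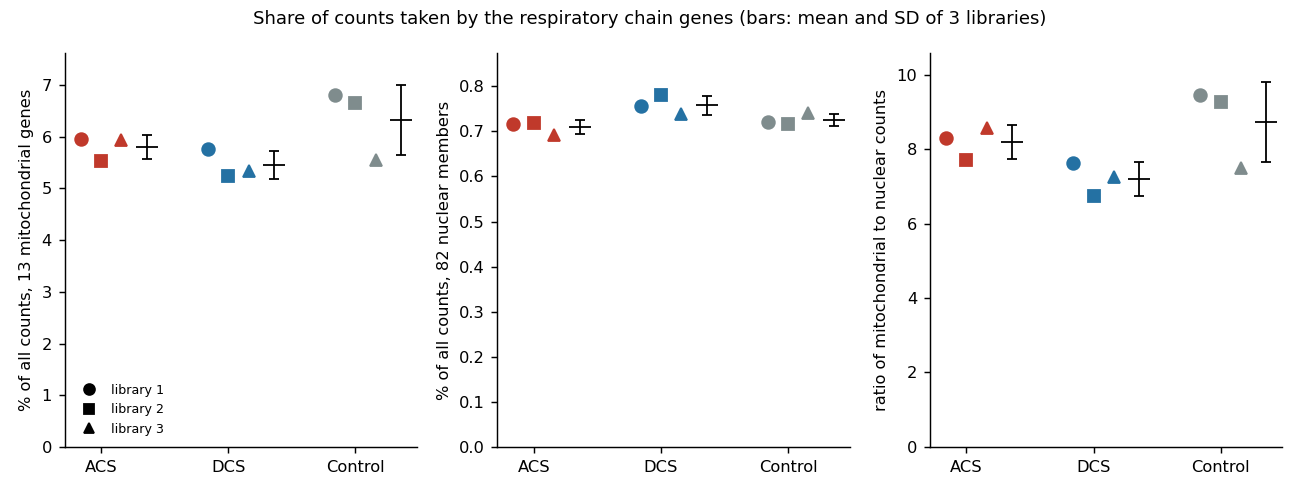
Share of all counts taken by the 13 mitochondrial genes (left, %), by the 82 nuclear members (middle, %) and their ratio (right) in each library of ACS, DCS and Control, with the mean and SD of 3 libraries as bars. Control 1 and Control 2 are the highest in the left and right panels, at 6.80% and 6.65% of counts, while Control 3 sits at 5.56%.

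Control 3 differed from the other Control libraries across the mitochondrial set. It was the lowest of the 3 Control libraries for 13 of 13 mitochondrial genes, with a median difference of -0.33 on the log2 scale from the mean of the other 2. Among the tested nuclear members, it was the lowest Control library for 25 of 81 and the highest for 37 of 81, with a median difference of 0.03. All 3 ACS libraries lay below both Control 1 and Control 2 for 10 of the 13 mitochondrial genes and 18 of the 81 nuclear members, where 22.5% of all tested genes did. All 3 DCS libraries did so for 12 mitochondrial genes and 7 nuclear members, where 17.2% of all tested genes did. Calls, medians and the leading members against Control are therefore also given without Control 3. That library was singled out by the values of these genes, so its removal is not independent of the mitochondrial values then tested, and calls without it are a description.

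Under ACS, the mitochondrial genes leaned lower than in Control but none passed the test (edgeR's quasi-likelihood test across all genes, adjusted p under 0.05). Of 13, 10 had a log2 fold change below 0 and 3 above it, with a median of -0.10, where the median of all 16284 tested genes was -0.0029. Mt-co2, which carries the copper center that takes electrons from cytochrome c, had 4356, 4108 and 4545 CPM under ACS, against 5625, 5172 and 4437 CPM in Control, a log2 fold change of -0.23 (SE 0.07, edgeR adjusted p = 0.118). Mt-cyb had 5915, 5345 and 5634 CPM under ACS, against 7082, 7076 and 5501 CPM in Control, at -0.22 (SE 0.09, edgeR adjusted p = 0.187). In both genes the Control 3 value fell inside the range of the ACS values and the other 2 Control values lay above them. These 2 were the only mitochondrial genes lower at an unadjusted p under 0.05, a rule that 10% of all tested genes met in the lower and 10.8% in the higher direction. For none of them did all ACS libraries lie on the same side of all Control libraries (no overlap), as 14% of all tested genes did on the higher and 13% on the lower side. Mt-nd6 at 0.12, Mt-nd5 at 0.04 and Mt-nd3 at 0.01 were the 3 above 0. Without Control 3, all 13 were below 0 with a median of -0.17, and more genes were called throughout, 3.32% of all tested genes as lower and 5.32% as higher. In that fit, 5 mitochondrial genes passed the test as lower under ACS, namely Mt-cyb at -0.33 (adjusted p = 0.00542), Mt-co2 at -0.32 (0.00765), Mt-nd4l at -0.26 (0.0365), Mt-nd1 at -0.23 (0.0167) and Mt-co1 at -0.17 (0.0332). DESeq2 on all 9 libraries called Mt-co2 (adjusted p = 0.0152) and Mt-cyb (adjusted p = 0.0463) as the only mitochondrial genes, and it called 5.15% of all the genes it tested lower and 6.89% higher.

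**Figure D2:**
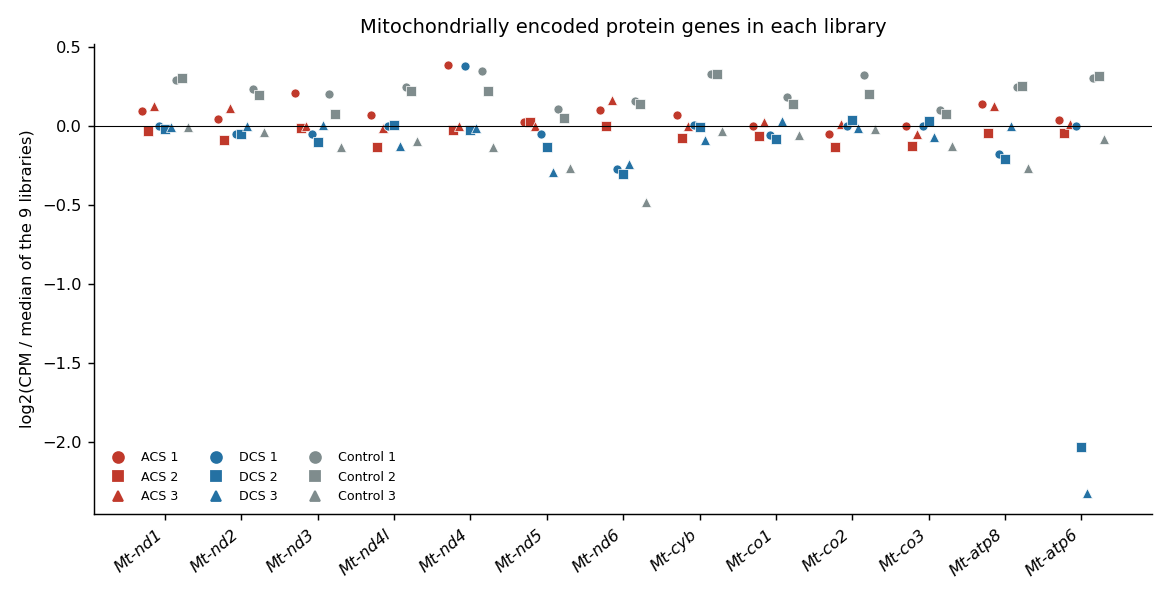
Level of each mitochondrially encoded protein gene in each library, as log2 of its CPM over the median of the 9 libraries, colored by group with a symbol per library. Control 1 and Control 2 stand highest for most genes, and DCS 2 and DCS 3 stand near 2 log2 units below the median for Mt-atp6 alone.

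Of the 81 tested nuclear members, 1 passed the test between ACS and Control. Among all tested genes, 2.83% were called higher and 1.33% lower in this comparison. The 1 member was Uqcrh (chromosome 5, 134919044 to 134927235, minus strand). It had 85.9, 85.3 and 83.3 CPM under ACS, against 101, 103 and 101 CPM in Control, so that the groups lay well apart. Uqcrh fell by 0.26 on the log2 scale (SE 0.04, edgeR adjusted p = 0.0119), with 84.8 ± 1.39 CPM under ACS and 102 ± 1.14 CPM in Control (SD, n = 3 each). Its call was lost without ACS 1 (adjusted p = 0.0505), without ACS 2 (0.058) and without Control 2 (0.0619), while the fold change stayed between -0.28 and -0.25 over 21 alternatives, whose adjusted p ran from 1.74e-05 to 0.0619. Without Control 3 it stood at -0.27 (adjusted p = 0.0115). DCS libraries had 94.2, 99.0 and 91.2 CPM, between ACS and Control.

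The other nuclear members with the smallest p-values lay in both directions without passing. Cox5b, a zinc-binding subunit of complex IV, had 92.1, 97.0 and 87.7 CPM under ACS, against 72.6, 74.2 and 82.4 CPM in Control, at 0.27 (SE 0.07, edgeR adjusted p = 0.0598). It passed without Control 3 (adjusted p = 0.0236), without DCS 3 (0.0417) and with DESeq2 (0.00491). Atp5pb, the peripheral stalk subunit b of complex V, had 98.7, 90.7 and 92.2 CPM under ACS, against 112, 107 and 99.3 CPM in Control, at -0.18 (adjusted p = 0.097). Cox7a2l2, whose name places it near the Cox7a family, stood at -0.18 as well (adjusted p = 0.12). Both passed with DESeq2 (adjusted p = 0.0309 for Atp5pb and 0.049 for Cox7a2l2). The ACS and Control libraries of all 3 entries did not overlap, though those of Atp5pb did once its copy was added, as described below. Atp5f1b, the highest nuclear member, had 886, 874 and 862 CPM under ACS, against 963, 975 and 920 CPM in Control, at -0.13 (adjusted p = 0.141), and Cox4i1 stood at -0.0020. Over the nuclear members tested, 40 were above and 41 below 0 with a median of -0.0020. Those at an unadjusted p under 0.05 numbered 8 higher and 7 lower, and those without overlap 8 higher and 11 lower, each near or below the shares of all genes given above. By complex, the median nuclear fold change was -0.0047 in complex I, -0.07 in complex II, where all 4 members were below 0, 0.0046 in complex III, 0.05 in complex IV and 0.01 in complex V. Without Control 3, when all 82 nuclear members passed the filter, 6 were called higher and 2 lower, where 5.32% and 3.32% of all tested genes were. Among them were Ndufa8 at 0.22, Cox6a1 at 0.24 and Atp5if1 at 0.21, all higher under ACS, and Atp5pb at -0.22. Atp5f1b then stood at -0.15 (adjusted p = 0.0691), the nuclear median at 0.02 and that of complex III at -0.04.

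**Figure D3:**
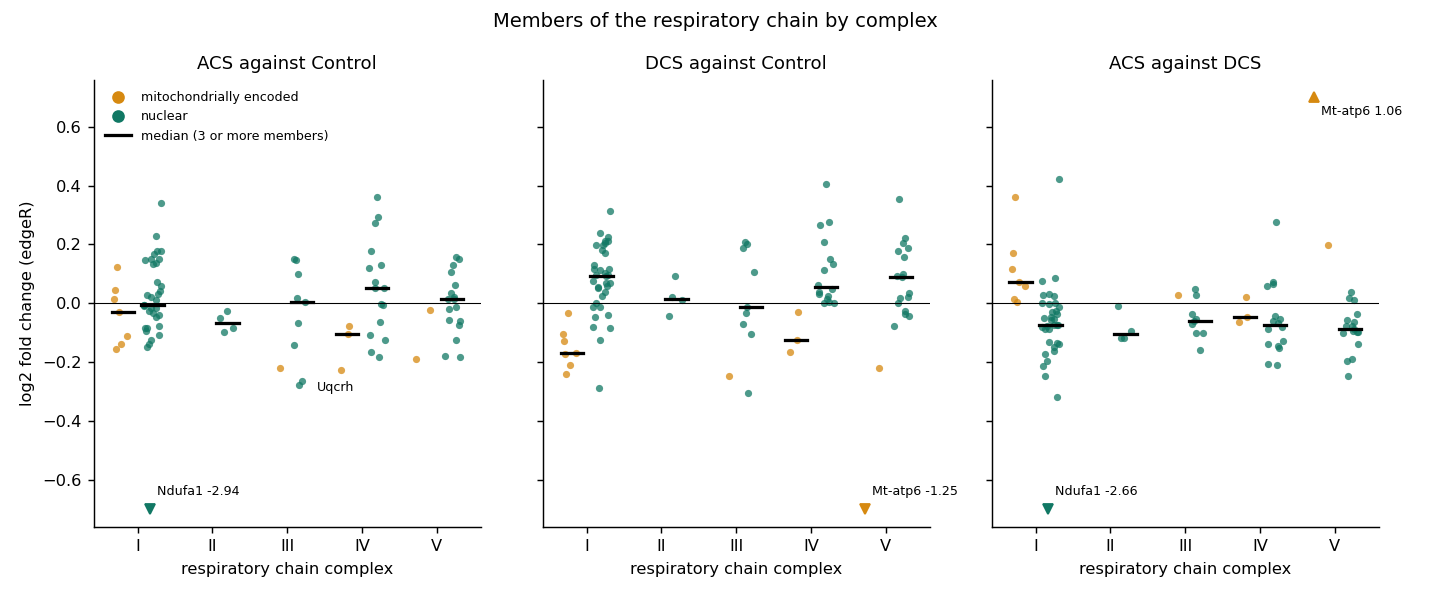
Log2 fold change of every tested member from edgeR, by complex and by the genome that encodes it, for ACS against Control, DCS against Control and ACS against DCS, with a black line at the median of groups of 3 or more. Uqcrh is the only named point that passed the test (-0.26, left), and values past 0.7 are drawn as triangles at the edge with their size printed (Ndufa1 and Mt-atp6).

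Because the nuclear genes of the chain are transcribed apart from the mitochondrial ones, their promoters were looked up in RefSeq (build GRCr8), which held a window of 250 bases before to 50 bases after the start for 70 of the 82 nuclear members (68 distinct symbols). The bases upstream of the start are shown for Uqcrh, the only member called, and for Cox5b and Cox8a, the members with the smallest p among those higher under ACS and under DCS. Capitals mark matches, on either strand, to CCGGAAG (an ETS factor core, CTTCCGG on the other strand) and, in Cox8a, to the cyclic AMP response element TGACGTCA. The windows lie at chr5:134790883-134791132 (minus strand) for Uqcrh, chr9:46417587-46417836 (plus strand) for Cox5b and chr1:213833624-213833873 (minus strand) for Cox8a.
Uqcrh: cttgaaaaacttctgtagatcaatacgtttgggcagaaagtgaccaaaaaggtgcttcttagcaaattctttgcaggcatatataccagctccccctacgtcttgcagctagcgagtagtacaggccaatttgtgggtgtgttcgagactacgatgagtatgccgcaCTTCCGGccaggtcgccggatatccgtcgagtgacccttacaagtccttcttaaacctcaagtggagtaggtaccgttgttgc
Cox5b: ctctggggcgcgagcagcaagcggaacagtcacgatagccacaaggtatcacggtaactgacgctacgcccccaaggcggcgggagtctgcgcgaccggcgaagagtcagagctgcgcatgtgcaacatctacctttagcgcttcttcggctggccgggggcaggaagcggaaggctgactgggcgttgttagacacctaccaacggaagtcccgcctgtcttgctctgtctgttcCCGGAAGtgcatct
Cox8a: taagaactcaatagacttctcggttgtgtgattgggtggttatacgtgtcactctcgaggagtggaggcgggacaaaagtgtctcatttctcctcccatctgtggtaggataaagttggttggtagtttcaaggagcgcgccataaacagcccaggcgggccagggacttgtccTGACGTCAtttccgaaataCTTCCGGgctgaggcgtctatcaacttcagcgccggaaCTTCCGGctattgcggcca
The ETS core was present in 19 of the 68 windows (27.9%), against 8.75% of all 33469 windows in the table. The 33469 windows were not reduced to 1 per symbol, as those of the members were. They were also not matched to the members in level or base composition. The letters GCGCATGC, part of the recognition site of NRF-1, a known regulator of these genes, were present in 8 windows (11.8%, against 2.47% of all windows), ATGGCGGC, a core bound by YY1, in 10 (14.7%, against 2.53%) and TGACGTCA in 3 (4.41%, against 1.83%). Within the 250 upstream bases alone, matches were present in 18 windows for the ETS core and 8 for GCGCATGC. The numbers there were 1 for ATGGCGGC and 2 for TGACGTCA, so most ATGGCGGC matches reached into the bases after the start. These motifs do not overlap in the windows printed, and 40 of the 68 windows held none of them. A match describes letters and not a bound site.

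Under DCS, all 13 mitochondrial genes had a log2 fold change below 0 against Control, with a median of -0.17, and the nuclear members leaned the other way with a median of 0.07, 63 above and 18 below 0. The median of all tested genes was 0.0027. By edgeR and by DESeq2, 0 members passed the test in this comparison, in which edgeR called 0.00614% of all tested genes higher and 0.00614% lower, and DESeq2 0.166% higher and 0.0678% lower. Mt-cyb had 5666, 5615 and 5288 CPM under DCS, against 7082, 7076 and 5501 CPM in Control, at -0.25 (SE 0.09, edgeR adjusted p = 0.692). Mt-nd1 had 5119, 5061 and 5094 CPM under DCS, against 6263, 6321 and 5096 CPM in Control, at -0.21 (SE 0.08, adjusted p = 0.692). The DCS values of Mt-nd1 lay close together around that of Control 3, with the other 2 Control libraries far above. Mt-nd2 at -0.17 and Mt-atp6 at -1.25 were the other mitochondrial genes at an unadjusted p under 0.05, so that 4 of 13 met the rule as lower, against 3.05% of all tested genes lower and 4.03% higher. No mitochondrial gene had DCS and Control libraries free of overlap, a pattern seen in 5.59% of all tested genes as higher and 5.51% as lower. Without Control 3, the adjusted p of Mt-cyb was 0.0331 at -0.36, that of Mt-nd6 0.0331 at -0.42 and that of Mt-nd1 0.0448 at -0.31. That fit called 0.193% of all tested genes higher and 0.0905% lower, and the mitochondrial median was -0.25 with all 13 below 0.

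Among the nuclear members, 15 of 81 were higher and 2 lower under DCS at an unadjusted p under 0.05, where 4.03% and 3.05% of all tested genes were. Without overlap, 10 were higher and 3 lower, where 5.59% and 5.51% of all tested genes were. Cox8a, a small complex IV subunit (chromosome 1, 222466575 to 222468896), had 53.3, 52.7 and 54.2 CPM under DCS, against 46.5, 41.2 and 45.7 CPM in Control, at 0.26 (SE 0.07, edgeR adjusted p = 0.692). The entry named Uqcrb on chromosome 1, which spans 94718402 to 94718876, had 38.5, 37.6 and 39.6 CPM under DCS, against 33.9, 32.5 and 33.8 CPM in Control, at 0.21 (SE 0.06, adjusted p = 0.692). A second entry of that name lies on chromosome 7, so reads of this subunit may be divided between the entries. The chromosome 7 entry showed no rise, with 29.4, 27.4 and 26.5 CPM under DCS, against 30.5, 28.3 and 28.6 CPM in Control. The entries were not summed, so the value given is that of the chromosome 1 entry and not of the subunit. Atp5mf, a membrane subunit of complex V, had 115, 120 and 111 CPM under DCS, against 102, 105 and 103 CPM in Control, at 0.16 (adjusted p = 0.692). Atp5if1, which inhibits ATP hydrolysis by complex V, had 84.2, 89.0 and 78.8 CPM under DCS, against 70.1, 68.6 and 77.5 CPM in Control, at 0.22 (adjusted p = 0.692). In these 4 every DCS library was above every Control library. Without Control 3 they stood at 0.28 for Cox8a (adjusted p = 0.123), 0.21 for Uqcrb (0.133), 0.16 for Atp5mf (0.136) and 0.28 for Atp5if1 (0.0666), none of them passing. Cox6a1, named for its pair, had 166, 167 and 148 CPM under DCS, against 123, 123 and 152 CPM in Control, and here the groups overlapped. It was the 1 nuclear member called without Control 3 (0.39, adjusted p = 0.041). All 16 nuclear members of complex IV were above 0, with a median of 0.05, as were 27 of 35 in complex I (median 0.09), 13 of 17 in complex V (median 0.09) and 3 of 4 in complex II (median 0.02), while complex III had 4 of 9 above 0 (median -0.01). Without Control 3, 59 of 82 nuclear members were above 0 with a median of 0.09, among them 13 of 16 in complex IV (median 0.13). Uqcrh stood at -0.10 (adjusted p = 0.692; without Control 3, -0.11 and 0.276), with all DCS below all Control libraries. Cytosolic ribosomal protein genes, another set of abundant short messages, had a median of 0.06 with 57 of 73 above 0 in the same comparison. The lean was thus shared by a set outside the chain, but not by abundant genes in general. The 9967 other genes at least as high as the lowest nuclear member with a mean count of 500 had a median of -0.00032, with 4974 above 0. In ACS against Control the ribosomal genes went apart from the nuclear members, with a median of -0.07 and 27 of 73 above 0. At an unadjusted p under 0.05, 19 of them were lower and 5 higher there.

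Set side by side, the median log2 fold change of the mitochondrial minus that of the nuclear members was -0.10 for ACS against Control, -0.24 for DCS against Control and 0.13 for ACS against DCS. The first 2 share the Control libraries. Without Control 3, they were -0.19 and -0.34. Leaving out ACS 2 brought the first to -0.03 and leaving out Control 1 to -0.05, and leaving out Control 1 brought the second to -0.18. The sign was kept in each of 22 alternatives for all 3 values, from -0.19 to -0.03, from -0.34 to -0.18 and from 0.08 to 0.19. Leaving out ACS 3 gave the lowest of the last range. These alternatives refit the same libraries, so a kept sign is not independent evidence. Per library, the mitochondrial minus the nuclear median deviation from the mean log2 level was 0.05, -0.12 and 0.08 in ACS. It was -0.13, -0.19 and -0.08 in DCS and 0.25, 0.20 and -0.12 in Control. Control 3 lay within the range of either current, and ACS 2 within that of DCS.

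Between the 2 currents, 0 members passed edgeR's test. Under ACS, 0.51% of all tested genes were called higher than under DCS and 0.123% lower. The median log2 fold change of the mitochondrial genes was 0.06, with 11 of 13 above 0, and the nuclear members one of -0.07, with 17 above and 64 below 0, where the median of all genes was -0.0021. Mt-nd6 had 795, 742 and 832 CPM under ACS, against 615, 602 and 627 CPM under DCS, at 0.36 (SE 0.14, edgeR adjusted p = 0.281). The ACS libraries were all above the DCS libraries, while Control had 827, 818 and 532 CPM, 2 values within the ACS range and 1 below every DCS library. Mt-nd6 passed the test when the 6 ACS and DCS libraries were fitted alone (adjusted p = 0.0242) and without Control 3 (adjusted p = 0.00877). It passed in none of the other alternatives. Both of these fits leave out Control 3 and keep every ACS and DCS library, and the fold change stayed at 0.36. The shares of all tested genes called between the currents in these fits were not counted, so both calls are a description. Mt-nd5, on the strand opposite to Mt-nd6, had 3292, 3299 and 3237 CPM under ACS, against 3123, 2957 and 2651 CPM under DCS, at 0.17 (adjusted p = 0.437). Those 2 were the mitochondrial genes without overlap, where 11.2% of all tested genes were higher and 10.2% lower, and Mt-nd6 was the only 1 at an unadjusted p under 0.05, where 7.22% were higher and 6.66% lower.

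The nuclear members lay lower under ACS than under DCS across complexes. At an unadjusted p under 0.05, 10 of 81 were lower and 0 higher, where 6.66% and 7.22% of all tested genes were. Without overlap, 15 were lower and 1 (Cox6b2) higher, where 10.2% and 11.2% of all tested genes were. Uqcrh had the smallest p, at -0.16 (SE 0.04, edgeR adjusted p = 0.135) with the values already given. Ndufb10, an accessory subunit of the complex I membrane arm, had 73.9, 71.2 and 75.8 CPM under ACS, against 90.7, 89.4 and 81.96 CPM under DCS, at -0.25 (SE 0.07, adjusted p = 0.137), and Control had 78.8, 76.5 and 89.7 CPM. Cox7a2l2 had FPKM values of 137, 151 and 137 under ACS, against 170, 173 and 155 under DCS, at -0.21 (adjusted p = 0.159). Cox7c, a small structural subunit of complex IV, had 59.9, 65.9 and 59.2 CPM under ACS, against 73.3, 74.6 and 65.3 CPM under DCS, at -0.20 (adjusted p = 0.184), with the groups overlapping between ACS 2 and DCS 3. DESeq2, which called 1.86% of all the genes it tested lower and 3.18% higher here, called 3 of these, namely Ndufb10 (adjusted p = 0.0208), Cox7a2l2 (0.0403) and Uqcrh (0.0436). All 4 members of complex II were below 0, and 3 of them, Sdha, Sdhb and Sdhd, did not overlap between the groups. The median over complex II was -0.11, over complex V -0.09, over complexes I and IV -0.07 each and over complex III -0.06. Cytosolic ribosomal protein genes had a median of -0.14 in this comparison, with 10 of 73 above 0. At an unadjusted p under 0.05, 30 of them were lower and 1 higher, so the lean was shared by a set outside the chain. The 9967 other genes of similar or higher level described above had a median of -0.0061, with 4784 above 0.

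Mt-atp6 was the most variable mitochondrial gene, with a spread within groups of 0.74 on the log2 scale, where the median was 0.13 for mitochondrial and 0.08 for nuclear members. Its values were 6132, 5809 and 6032 CPM in ACS libraries, 5985, 1464 and 1198 CPM in DCS libraries and 7401, 7435 and 5658 CPM in Control libraries. Thus DCS 2 and DCS 3 were low by several fold, whereas DCS 1 was among the other libraries. Whether this reflects the RNA or the assignment of reads to the entry in those 2 libraries was not tested, and it bears on every Mt-atp6 value for DCS. Its neighbors did not share the drop. Mt-atp8, read from the same RNA, had 1206, 1177 and 1362 CPM in DCS libraries, and Mt-co3 had 5699, 5837 and 5421 CPM. Per kilobase, the ratio of Mt-atp6 to Mt-atp8 was 0.373 in DCS 2 and 0.264 in DCS 3, against 1.22 to 1.498 in the other 7 libraries, and that of Mt-atp6 to Mt-co3 was 0.289 and 0.254, against 1.21 to 1.43. The deficit in those 2 libraries averaged 4973 CPM. An excess was counted only where both DCS 2 and DCS 3 exceeded all other libraries in the same entry. The largest was 9.35 CPM for Vim, and all of them summed to 519 CPM over 602 entries. Of the 37 entries of the mitochondrial chromosome, 0 had such an excess. Reads given to different entries in each library, or to none, would not be seen this way. The log2 fold change of DCS against Control was -1.25 (SE 0.50, edgeR adjusted p = 0.692), and without DCS 1, which leaves the 2 low libraries, it was -2.36 (adjusted p = 0.000508). Without Control 3 it was -1.36 (adjusted p = 0.269). The ACS against DCS value was 1.06 (adjusted p = 0.385), and 2.17 without DCS 1 (adjusted p = 0.000482). DCS 2 and DCS 3 were singled out by the values of this gene. The p-values without DCS 1 follow from that choice and are a description, not an independent test. Without Mt-atp6, the other 12 mitochondrial genes took 5.35%, 4.96% and 5.33% of counts in ACS libraries, 5.18%, 5.10% and 5.22% in DCS libraries and 6.07%, 5.91% and 4.99% in Control libraries, and their median for DCS against Control was -0.17.

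**Figure D4:**
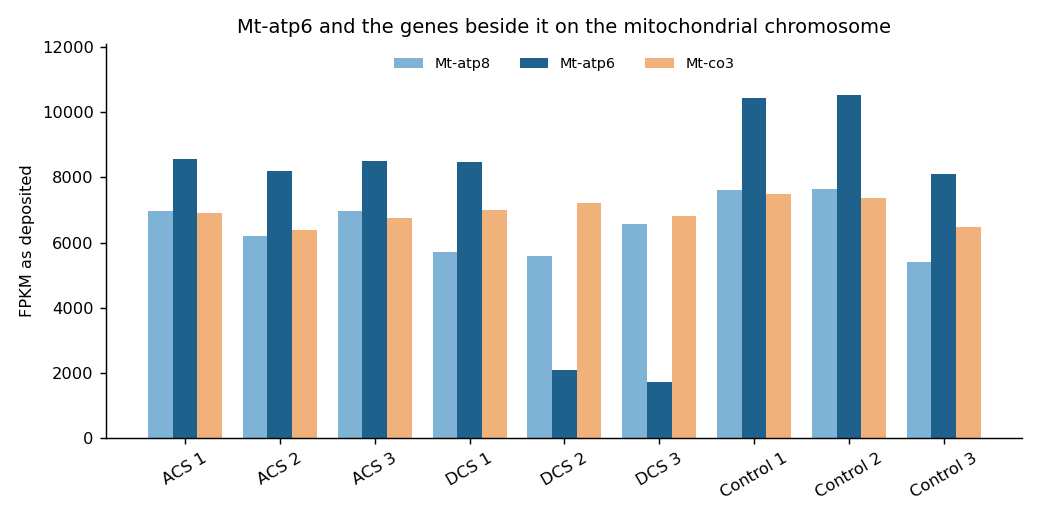
FPKM as deposited of Mt-atp8, Mt-atp6 and Mt-co3, which lie next to each other on the mitochondrial chromosome, in each library. Mt-atp6 stands at 2086 and 1731 in DCS 2 and DCS 3 and at 8103 or more elsewhere, while its neighbors show no such drop.

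Mt-nd4, a core membrane subunit of complex I, split the libraries in a way that cut across the groups. It had 3722, 2800 and 2854 CPM in ACS, 3715, 2809 and 2829 CPM in DCS and 3628, 3327 and 2606 CPM in Control libraries. The first library of every group and Control 2 were high and the others low. Neither current passed the test against Control, with log2 fold changes of -0.03 for ACS (adjusted p = 0.939) and -0.03 for DCS (adjusted p = 0.973). Without Control 3 they were -0.15 for ACS (adjusted p = 0.58) and -0.16 for DCS (adjusted p = 0.678).

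A few nuclear values depended on how reads were divided between near-identical entries. Ndufa1, an accessory subunit of complex I (chromosome X, 124513269 to 124516705), was chosen after its values were seen. It had counts of 0, 0 and 294 in ACS libraries, 769, 13 and 1422 in DCS libraries and 709, 1067 and 924 in Control libraries. A second entry described as the same subunit, LOC108348144 (chromosome X, 123803103 to 123806777), had 1088, 994 and 1043 in ACS, 845, 1986 and 330 in DCS and 881, 778 and 1151 in Control libraries, and it was high where Ndufa1 was low within DCS. For Ndufa1 alone the fitted log2 fold change of ACS against Control was -2.94 (SE 1.59, edgeR adjusted p = 0.327), a size that depends on the prior count. With both entries summed before the fit, the subunit had 21.6, 20.3 and 25.4 CPM under ACS, 30.9, 34.6 and 25.2 CPM under DCS and 29.7, 27.01 and 32.2 CPM in Control. The summed value stood at -0.40 for ACS against Control (SE 0.13, adjusted p = 0.108), at 0.03 for DCS against Control (adjusted p = 0.972) and at -0.43 for ACS against DCS (adjusted p = 0.166). Without Control 3 it stood at -0.34 for ACS (adjusted p = 0.172) and 0.09 for DCS (adjusted p = 0.819). The ACS libraries lay below all Control libraries, and ACS 3 lay just above DCS 3.

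**Figure D5:**
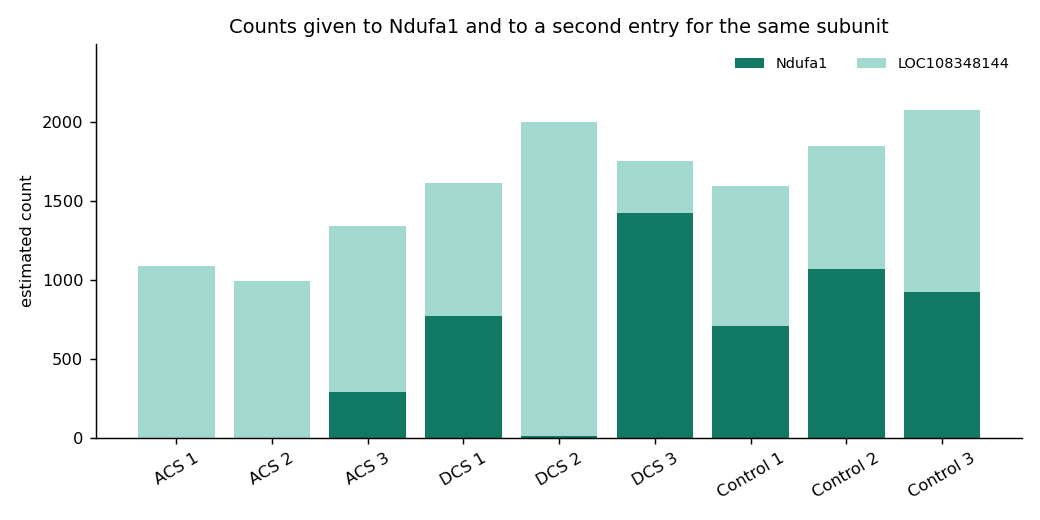
Estimated counts given to Ndufa1 and to a second entry for the same subunit, LOC108348144, stacked for each library. The division changes between libraries, with 0 counts for Ndufa1 in ACS 1 and ACS 2 and 13 in DCS 2, while the stack varies far less.

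The division between other copies varied as well. Outside the members, the entries LOC100912599 and LOC679739, both described as the complex I subunit Ndufs6, had near-equal counts in 8 libraries, and in DCS 3 they held 2144 and 14. Atp5pb and its copy LOC100911417 divided their reads almost evenly everywhere, as in ACS 1 with 4978 and 5174. Summed, Atp5pb had an ACS against Control value of -0.14 (adjusted p = 0.191). The summed ACS and Control libraries overlapped, with 201 CPM in ACS 1 and 197 CPM in Control 3. Uqcr10, a small subunit of complex III also chosen after its values were seen, had 21.9, 13.3 and 8.63 CPM in ACS, 10.1, 20.9 and 11.9 CPM in DCS and 11.3, 18.9 and 22.8 CPM in Control libraries, so that each group held low and high libraries. Ndufa1, Mt-atp6 and Uqcr10 were the only members whose spread within groups exceeded 0.5 on the log2 scale.

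The machinery around the chain was examined through 7 lists. Of 11 regulators of mitochondrial biogenesis, 1 passed the test. This was Creb1, the cyclic AMP response factor, with 15.9, 19.1 and 16.6 CPM in ACS libraries, 23.5, 23.4 and 24.2 CPM in DCS libraries and 23.6, 21.4 and 21.4 CPM in Control libraries, so that every ACS library was the lower. Creb1 fell by 0.36 on the log2 scale against Control (SE 0.09, edgeR adjusted p = 0.0456) and by 0.46 against DCS (SE 0.09, adjusted p = 0.0491). Both calls lay close to the threshold. Without 1 library each was lost in 7 of 9 fits, all but those without ACS 2 or Control 3, with adjusted p-values over all alternatives from 0.00471 to 0.162 against Control and from 0.000296 to 0.493 against DCS. Nrf1, which encodes the factor NRF-1, stood at -0.22 for ACS against Control (adjusted p = 0.0535) and Sp1 at -0.21 (adjusted p = 0.114), and these passed with DESeq2 (0.014 for Nrf1 and 0.0394 for Sp1), Nrf1 also without Control 3 (0.0348) and with a mean FPKM of at least 1 (0.0421). Perm1, a muscle regulator at 2.69 CPM under ACS and 1.51 CPM in Control, stood at 0.83 (adjusted p = 0.205). The list had 3 of 11 above 0 with a median of -0.09 for ACS against Control.

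None of the other 6 lists held a gene that passed edgeR's test on all libraries with the stated filter in any comparison, though some passed for ACS against Control under an alternative. Of 14 genes for mitochondrial transcription and DNA maintenance, 4 were lower under ACS than in Control at an unadjusted p under 0.05, with a list median of -0.09. By this rule, 10% of all tested genes were lower and 10.8% higher. Tfam, the packaging and transcription factor of mitochondrial DNA, had 34.5 CPM under ACS, against 42.1 CPM in Control, at -0.29 (edgeR adjusted p = 0.0876), Mterf3 stood at -0.25 (0.206) and Mterf2 at -0.48 (0.233), and Polg, the mitochondrial DNA polymerase, at 0.05 (0.694). Of 16 genes for mitochondrial RNA processing and stability, 2 were higher and 3 lower by the same rule. Fastk, of which a mitochondrial isoform is needed for Mt-nd6 RNA in mouse, had 38.0 CPM under ACS, 35.2 CPM under DCS and 28.5 CPM in Control, at 0.42 for ACS against Control (adjusted p = 0.0512) and 0.30 for DCS against Control (adjusted p = 0.692). Trmt10c, a subunit of the RNase P that cuts precursors at tRNAs, stood at -0.34 under ACS (adjusted p = 0.085), Pnpt1, a mitochondrial exoribonuclease, at -0.20 (0.138) and Prorp, the nuclease of RNase P, at -0.23 (0.191). Among the 21 alternatives, Fastk passed for ACS against Control with DESeq2 (adjusted p = 0.00209), without Control 3 (0.00809) and with a mean FPKM of at least 1 (0.0422). It also passed with counts divided by 4 (0.0426) and, just under 0.05, without DCS 3. Its adjusted p over all 21 alternatives ran from 0.00209 to 0.176. Tfam and Trmt10c passed in 2 each, DESeq2 (0.0203 and 0.0195) and without Control 3 (0.0146 and 0.00618).

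At an unadjusted p under 0.05, 10.8% of all tested genes were higher and 10% lower in ACS against Control. The shares were 4.03% and 3.05% in DCS against Control, and 7.22% and 6.66% in ACS against DCS. The assembly factors gave less. Of 14 for complex I, 0 were at an unadjusted p under 0.05 in ACS against Control and 1 in DCS against Control, which was Ndufaf8 at 0.48 (edgeR adjusted p = 0.692). Ndufaf2 at -0.35 was the only 1 in ACS against DCS (adjusted p = 0.331), and Ndufaf5 and Ecsit stood at -0.13 and 0.14 for ACS against Control. Of 26 tested for complexes II to V, Lyrm7 at 0.34 (adjusted p = 0.326) and Cox20 at 0.19 (adjusted p = 0.346) were higher under ACS than under DCS by the unadjusted rule, and Cox17 and Cox18 met it in no comparison. Among 13 carriers and chain components outside the name pattern, Slc25a5, an ADP/ATP carrier, had 184 CPM under ACS, 201 CPM under DCS and 207 CPM in Control. It stood at -0.17 for ACS against Control (edgeR adjusted p = 0.064). It passed with DESeq2 (0.00918) and, just under 0.05, with a mean FPKM of at least 1. Vdac1, the outer membrane channel, stood at -0.13 (adjusted p = 0.233), Slc25a4 at -0.02 (0.747) and Cyc1, cytochrome c1, at 0.03 (0.849). Of 11 genes of ubiquinone synthesis, 2 were higher under ACS than in Control by the unadjusted rule, Coq8b at 0.28 (adjusted p = 0.165) and Coq6 at 0.23 (adjusted p = 0.201), and 9 of 11 were above 0 under DCS with a median of 0.11, including Coq4 at 0.27 and Coq2 at 0.14.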

How the data were processed

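The authors sequenced poly(A)-selected RNA, trimmed reads (cutadapt 1.9 in the submitters' processing notes), aligned them with HISAT2 2.0.4 and quantified them with StringTie 1.3.4d, and UMI-tools is named without its role. No build is named in the table, and the study's methods give the genome as rat with the name GRCh38. The deposited FPKM values are scaled to transcript length and sequencing depth, and the deposited estimated counts are whole numbers from the same quantification. The members and gene lists were chosen with earlier results of these data known.

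Counts of all 32623 entries were scaled by TMM in edgeR 4.0.16 and filtered by filterByExpr (minimum count 10, minimum total 15), leaving 16284. A quasi-likelihood F test over 9 libraries, 1 coefficient per group, gave 3 comparisons, adjusted by Benjamini-Hochberg, with a call at an adjusted p under 0.05. The script was tested on simulated data. CPM is scaled by TMM, and marker sums use the plain total. At 49039412 to 68690760 estimated counts per library, counting error matters mainly for low entries.

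Named nuclear members were the called ones, filled to 4 per comparison by smallest p, the highest per complex, alternative subunit pairs, Atp5if1 and those beside the count minimum. Each other list gave up to 4 by smallest p. Alternatives used median-of-ratios scaling, TMM without mitochondrial genes, no filter, a mean FPKM of at least 1, DESeq2 1.42.0, limma 3.58.1 on log2(FPKM + 1) or log2(FPKM + 0.1), counts divided by 4, 6 libraries alone, a replicate block and each library left out. Chosen after seeing the data were summing near-identical entries, leaving out DCS 2 and 3 together, leaving out Mt-atp6, and the summed Ndufa1 entries without Control 3.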

Additional observations from a re-analysis of the deposited data

How the results depend on the processing

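The alternatives were followed for all mitochondrial genes and for the nuclear members at an unadjusted p under 0.05 in any comparison. These nuclear members were picked by p in the same data, so a kept direction is not independent evidence. Of the values of these members, 2493 of 2583 kept their direction and side of the threshold, 0 reversed and 28 came to pass. A further 3 (all Uqcrh in ACS against Control, when a library was left out) no longer passed, and 59 without a call moved. For the named genes of the other lists, 1690 of 1761 values kept both, 0 reversed, 15 came to pass and 23, all of them Creb1, no longer passed. For nuclear members called in ACS against Control (1), a mean FPKM of at least 1 gave 2 and DESeq2 gave 4, and leaving out a library gave 0 to 8. For mitochondrial members (0), DESeq2 gave 2 and leaving out a library 0 to 5. Calls among all tested genes moved too. They were 2.83% higher and 1.33% lower in the main fit, 6.89% and 5.15% with DESeq2, and 5.32% and 3.32% without Control 3. For DCS against Control, leaving out a library gave 0 to 3 mitochondrial and 0 to 1 nuclear calls, against 0 each. Among all tested genes, 0.00614% were called higher and 0.00614% lower there, and 0.193% and 0.0905% without Control 3. For ACS against DCS, DESeq2 gave 3 nuclear calls and the 6 libraries alone 1 mitochondrial call, against 0 each, and leaving out a library 0 to 1 mitochondrial and 0 nuclear calls. Among all tested genes, 0.51% were called higher and 0.123% lower there, and 3.18% and 1.86% with DESeq2. For the other alternatives these shares were not counted. When a library was left out, the median of mitochondrial minus that of nuclear members ran from -0.19 to -0.03 in ACS against Control, from -0.34 to -0.18 in DCS against Control and from 0.08 to 0.19 in ACS against DCS. The mitochondrial share then ran from 5.73% to 5.94% in ACS, 5.30% to 5.56% in DCS and 6.10% to 6.72% in Control. As a share of FPKM in place of counts it was 13.6% in ACS, 12.4% in DCS and 14.7% in Control. The cause was not tested. Control 3 gave the highest counts of calls when left out. Samples with the same replicate number did not deviate together (correlations -0.05 to 0.06), and the replicate block, with 1 nuclear call in ACS against Control and Uqcrh at an adjusted p of 0.0235, changed no call of a member. Under the block, Creb1 stood at an adjusted p of 0.0739 in ACS against Control and 0.0892 in ACS against DCS. With 3 libraries per group, small changes of single genes can be missed.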
